A study of Mus musculus with 18 samples.

Results

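The comparison described here sets an uninduced Ddx41-floxed mouse cell line against the wild-type line that served beside it, and shows what differed between the lines before any deletion of Ddx41. It uses 6 of the 18 RNA-seq libraries of the study, taken by their column names. The comparison was chosen with earlier results of these data known. The libraries are WT_EtOH A, B and C, of genotype +/+, and FF_EtOH A, B and C, of genotype flox/flox. All were grown from lineage-negative bone marrow cells that had been transduced with a retrovirus carrying the MLL-AF9 fusion oncogene, all expressed the tamoxifen-activated recombinase Rosa-CreERT, and all are labelled as having received only the solvent, ethanol, for 48 h. The same lines after 48 h in 1 µM 4-hydroxytamoxifen (4OHT), called WT_4OHT and FF_4OHT with 3 libraries each, are used below as separate libraries of each line. The third line of the study, Het (+/flox), is quoted only for its levels and its place at the called genes. The labels do not say how many lines were made per genotype or whether the letters A to C are separate cultures, so the p-values measure only how far these libraries scatter, and that scatter may be technical. The floxed genotype and the individual line cannot be told apart.

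MLL-AF9 joins the DNA-binding end of the histone methyltransferase MLL to a partner that recruits transcription elongation factors, and it holds myeloid progenitors in a self-renewing state that rests on Hoxa9 and Meis1. A retrovirally immortalised line can descend from few marrow cells, and each starting cell brings its own stage of differentiation and its own set of silenced and open genes. Ddx41 encodes a DEAD-box RNA helicase with roles in splicing and nucleic acid sensing, and the floxed allele leaves the gene intact until Cre acts.

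The deposited counts summed to between 25888927 reads in FF_EtOH A and 34351716 in WT_EtOH C, so that 1 read was worth 0.0297 to 0.0407 CPM (reads scaled to a common library size with edgeR's TMM method). The cells carried the marks of MLL-AF9 myeloid progenitors in all 6 libraries: Hoxa9 at 276 to 488 CPM, Meis1 at 91 to 140.5 CPM, Kit at 89.7 to 115 CPM, the myeloid regulator Spi1 at 208 to 354 CPM and the granule protease gene Elane at 2991 to 4884 CPM. The T cell gene Cd3e and the globin gene Hbb-bs had 0 counts in all 6. Globin genes have close copies, and how reads with several matches were handled is not known here. The 0 at Hbb-bs therefore does not show that erythroid RNA was absent. 3 libraries of the 2 lines stood apart from their labels. The library labelled FF_EtOH C lay with the WT line, the library labelled WT_4OHT C lay with the FF line, and the library labelled WT_EtOH C had a Tgm2 level like that of the 4OHT libraries. Tgm2 stood at 18 and 17.4 CPM in WT_4OHT A and B and at 19.9 to 26.9 CPM in FF_4OHT, whereas WT_EtOH A and B had 219 and 229 CPM, and FF_EtOH A and B had 439 and 275 CPM. It measured 25.5 CPM in the library labelled WT_EtOH C, 402 CPM in that labelled FF_EtOH C and 481 CPM in that labelled WT_4OHT C, so that the last, too, stood at an ethanol level. Ddx41, at 93.3 CPM in the library labelled WT_4OHT C, was not reduced there, while it was 14.5 to 17.5 CPM in FF_4OHT. Whether these 3 libraries were relabelled or swapped cannot be told from the deposited table. The labels were kept as given, and what each group's values stand for, above all in WT_EtOH C, FF_EtOH C and WT_4OHT C, holds only as far as the labels do. The count of called genes is therefore given for all 6 ethanol libraries and without FF_EtOH C. The gene lists, the neighbourhood of Ddx41 and the chromosomes are described without FF_EtOH C only. The 4OHT comparison leaves out WT_4OHT C. These choices rest on the libraries' values, and the results without them are conditional on that.

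The position of FF_EtOH C was plain across the transcriptome. Over 11417 autosomal genes its log2 CPM correlated with those of WT_EtOH A, B and C at r = 0.989, 0.993 and 0.989, but with those of FF_EtOH A and B at 0.965 and 0.975, while FF_EtOH A and B correlated with each other at 0.985. These values are across genes, which are not independent replicates. The 3 WT_EtOH libraries correlated among themselves at 0.982 to 0.995. WT_EtOH C, the library with the low Tgm2 level, correlated with WT_EtOH A and B at 0.982 and 0.986. With WT_4OHT A and B it correlated at 0.986 and 0.994. WT_EtOH A and B correlated with WT_4OHT A at 0.994 and 0.992, and with WT_4OHT B at 0.989 and 0.991. WT_EtOH C was kept in the WT group of the fits as labelled. On the first principal component, which carried 55.8% of the variance, FF_EtOH A and B stood at 45.3 and 33.4, FF_EtOH C at -22.5 and the WT_EtOH libraries between -22.5 and -15.97.

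**Figure D1:**
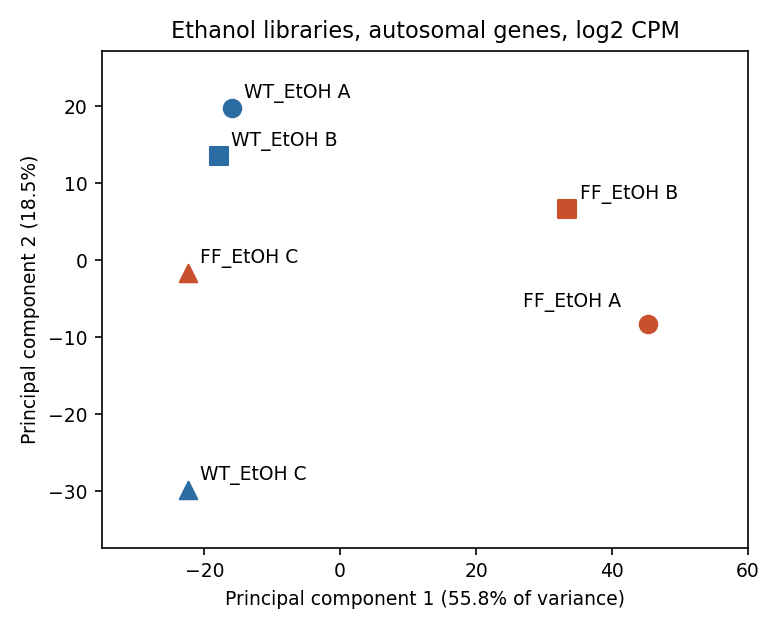
Principal components of log2 CPM over autosomal genes in the 6 ethanol libraries; each point is 1 library, circles are A, squares B and triangles C, blue WT_EtOH and red FF_EtOH. FF_EtOH A and B lie at 45.3 and 33.4 on the first component (55.8% of the variance), and FF_EtOH C lies at -22.5, beside the WT_EtOH libraries; WT_EtOH C lies apart from the rest on the second (18.5%).

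Ddx41 itself, the floxed gene (chr13:55530410-55536658 on GRCm38, minus strand), was expressed in all 6 libraries. Its level was 79.9, 82.3 and 89.9 CPM in WT_EtOH A, B and C, 111 and 82 CPM in FF_EtOH A and B and 73.8 CPM in the third FF library (labelled FF_EtOH C). The FF and WT groups overlapped at Ddx41, and the difference without FF_EtOH C, a log2 fold change of 0.20 ± 0.16 (SE), did not pass the test (edgeR adjusted p = 0.663). Its sign rested on FF_EtOH A, the highest library: without that library the log2 fold change was -0.035 (edgeR adjusted p = 1.00). In the fit without FF_EtOH C, the neighbourhood of the floxed gene held differing genes at about the share of the autosomes as a whole. Of 66 autosomal genes tested within 5 Mb of Ddx41, 2 (3.03%) were called, and of 120 within 10 Mb, 7 (5.83%), beside 4.67% over all autosomes.

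With all 6 libraries, 1 of 11417 autosomal genes tested passed an adjusted p of 0.05 (percent called 0.00876), and none was lower in FF. That gene was Egln3 (chr12:54178981-54203860), which encodes a prolyl hydroxylase that marks the hypoxia-inducible factors for destruction and is itself induced by low oxygen. Egln3 measured 38.4, 36.1 and 33.6 CPM in WT_EtOH A, B and C and 104 and 105 CPM in FF_EtOH A and B, and the third FF library (labelled FF_EtOH C) stood with them at 102 CPM. All 3 FF libraries were high and the groups did not overlap. The log2 fold change was 1.53 ± 0.11 (SE) with an edgeR adjusted p of 0.00457. The call was lost with the letters A to C as a block (edgeR adjusted p = 0.0821), without WT_EtOH B (0.0859) and without FF_EtOH B (0.0646). After 4OHT the difference did not pass the test: Egln3 averaged 34.9 ± 7.57 CPM (SD, n = 3) in FF_4OHT against 32.2 ± 1.56 CPM (SD, n = 2) in WT_4OHT A and B, a log2 fold change of 0.11 (edgeR adjusted p = 0.637). The library labelled WT_4OHT C, left out there, had 360 CPM of Egln3. The Het line in ethanol had 162, 671 and 274 CPM in libraries A, B and C, so a high level was not particular to the FF line. At an unadjusted p under 0.05, 579 of the 11417 genes stood out by edgeR with all 6 libraries. DESeq2 called 39 genes (32 higher in FF, 7 lower) and limma voom 1.

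Without FF_EtOH C the lines differed at many genes. Of 11701 autosomal genes tested, 547 were called (percent called 4.67), 342 of them higher in FF_EtOH A and B (2.92) and 205 lower (1.75). At 439 of these the difference was at least 2-fold (3.75% of genes tested), at 275 higher (2.35%) and 164 lower (1.4%). At 49 higher and 18 lower genes it was at least 16-fold (a log2 fold change of 4). All 547 separated the 2 FF from the 3 WT libraries without overlap, as did 3603 of all tested genes (30.8%). Depending on the libraries the count moved: it was 206 without FF_EtOH A, 276 without FF_EtOH B and 466 without WT_EtOH C, and with the letters as a block it was 981 (576 higher, 405 lower), which held 545 of the 547. With FF_EtOH C left out, the letter C held WT_EtOH C alone. A block by letter then absorbs that library, so the line difference in the block fit rests on libraries A and B of each line. This holds for every count with the block given below without FF_EtOH C. The median log2 fold change over all tested genes was -0.04. With all 6 libraries, 82 of the 547 genes did not pass the count filter, which then asks for reads in 3 libraries, and 11 of the 12 with the largest rise were among them. Without that filter the test on all 6 still called 1 gene. Of the 465 tested, Egln3 passed and the next lowest edgeR adjusted p was 0.885: Prdm16 and Cdkn2c, for example, had log2 fold changes of -1.18 ± 1.62 (SE) and -1.55 ± 0.99 (SE) with FF_EtOH C included, at an edgeR adjusted p of 0.999. No gene named below other than Egln3 passed with all 6 libraries.

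FF_EtOH C was left out because its values lay with WT, so its place at the 547 genes restates that choice gene by gene and is given as a description, not as independent support. It lay nearer to the WT mean than to that of FF_EtOH A and B at 529 of them (96.7%), inside the range of the 3 WT libraries at 271 and inside the range of FF_EtOH A and B at 1. The library labelled WT_4OHT C lay nearer to the WT_EtOH mean at only 23 of the 547, whereas WT_4OHT A and B did so at 539 and 541. FF_4OHT A, B and C did so at 114, 104 and 141. Libraries A, B and C of the Het line in ethanol did so at 104, 129 and 111. At most of the 547 genes the Het line thus lay nearer to FF_EtOH A and B, so these differences are not particular to the FF line. Libraries of 1 group also differed among themselves. On the log2(CPM + 0.1) scale, FF_EtOH A and B were over 2-fold apart at 469 of the 11701 genes (4.01%), WT_EtOH A and B at 181, WT_EtOH B and C at 366 and WT_EtOH A and C at 567. FF_EtOH C was that far from FF_EtOH A at 1264 genes, from FF_EtOH B at 895 and from WT_EtOH B at 213.

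Genes read in 1 line and close to silent in the other made up the extremes, and the start regions of 4 of them are shown with each CG dinucleotide, the substrate of DNA methylation, marked. Each window runs from 250 bases before to 50 bases after a transcription start, as RefSeq gives it on GRCm38.p6, 5′ to 3′ on the gene's strand, with CG in capitals. Pea15a, As3mt and Rangrf were read in FF_EtOH A and B and all but absent from the WT libraries, and Prdm16 was the reverse.
Pea15a, chr1:172206755-172207054, minus strand: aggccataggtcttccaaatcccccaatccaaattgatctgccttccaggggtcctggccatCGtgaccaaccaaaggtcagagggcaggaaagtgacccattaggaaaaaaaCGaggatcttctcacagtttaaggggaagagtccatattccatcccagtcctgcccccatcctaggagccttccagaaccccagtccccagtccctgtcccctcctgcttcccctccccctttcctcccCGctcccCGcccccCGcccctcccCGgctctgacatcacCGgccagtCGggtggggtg
As3mt, chr19:46707208-46707507, plus strand: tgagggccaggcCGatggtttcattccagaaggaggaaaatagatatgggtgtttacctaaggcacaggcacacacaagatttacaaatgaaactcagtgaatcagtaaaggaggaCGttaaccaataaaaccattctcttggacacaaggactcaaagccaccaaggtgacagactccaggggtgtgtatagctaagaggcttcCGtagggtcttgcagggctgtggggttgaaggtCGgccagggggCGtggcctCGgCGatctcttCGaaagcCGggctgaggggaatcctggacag
Rangrf, chr11:68973806-68974105, minus strand: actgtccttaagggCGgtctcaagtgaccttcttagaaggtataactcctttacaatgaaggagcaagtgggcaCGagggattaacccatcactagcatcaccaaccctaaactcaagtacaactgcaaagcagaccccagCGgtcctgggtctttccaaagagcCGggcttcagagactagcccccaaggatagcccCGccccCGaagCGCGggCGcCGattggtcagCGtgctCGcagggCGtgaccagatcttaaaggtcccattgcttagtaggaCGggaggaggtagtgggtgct
Prdm16, chr4:154636824-154637123, minus strand: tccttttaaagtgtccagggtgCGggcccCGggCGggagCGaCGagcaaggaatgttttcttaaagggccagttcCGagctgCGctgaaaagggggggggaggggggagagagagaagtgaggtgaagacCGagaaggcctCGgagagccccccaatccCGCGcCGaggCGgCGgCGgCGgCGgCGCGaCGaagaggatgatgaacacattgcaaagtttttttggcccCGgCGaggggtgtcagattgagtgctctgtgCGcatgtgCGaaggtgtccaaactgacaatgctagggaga
The letters CG, which read the same on both strands, occur 8 times in the Pea15a window, 9 times in that of As3mt, 14 in that of Rangrf and 24 in that of Prdm16. As many or more are held by 48.6%, 45.8%, 36.3% and 19.98% of all 32851 windows in the table. These 4 do not span the range among the genes with the widest gaps, where the first listed window held from 1 CG (Slc28a2) to 33 (Cdkn2c). The tested genes had a median of 21 CG per window (8845 genes matched, the first window listed for each), the genes called higher in FF a median of 17 (251 matched) and those called lower a median of 14 (134 matched); 82.4%, 67.3% and 64.2% of them held 10 or more. Among the genes at least 16-fold apart the medians were 14 for higher (37 matched) and 10 for lower genes (13 matched). The counts describe letters only, and methylation was not measured. Of the genes named below, Eya1, Skida1, Adrbk2 and Mansc1 were among those not matched.

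Among the 12 genes with the largest rise in FF, 4 had no read in any WT library. Eya1 (chr1:14168954-14310235), a transcriptional co-activator and phosphatase that partners homeodomain proteins of the sine oculis family, measured 0 CPM in WT_EtOH A, B and C, 65.6 and 55.2 CPM in FF_EtOH A and B and 0 CPM in the third FF library (labelled FF_EtOH C). It was at least 1757-fold higher in FF_EtOH A and B than in WT, taking a floor of 3 counts over the 3 WT libraries together (edgeR adjusted p = 2.54e-05). The pattern of presence and absence was complete, with 3166 reads in the 2 FF libraries and none in the other 4. Pea15a (chr1:172196728-172206804), an adaptor that binds ERK and death-effector proteins, stood at 22.3 and 22 CPM in FF_EtOH A and B, at least 648-fold over the same floor (edgeR adjusted p = 5.34e-05). Psma8 (chr18:14706151-14762301), the testis-specific alpha subunit of the proteasome, had 17.6 and 23.3 CPM and was at least 604-fold higher. As3mt (chr19:46707458-46741099), an arsenic methyltransferase, had 16.8 and 18.7 CPM and was at least 521-fold higher. FF_EtOH C had 0 counts of all 4 genes, like WT.

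The other 8 of these genes had a few reads in WT. Dnah8 (chr17:30624354-30877365), a heavy chain of axonemal dynein, measured 0, 0 and 0.0594 CPM in WT and 18.5 and 14.2 CPM in FF_EtOH A and B, a ratio of 712 with a 95% counting interval of 197 to 5892. Rangrf (chr11:68972484-68975185), which encodes the Ran-binding protein MOG1, measured 0.0396, 0.0347 and 0.0297 CPM in WT and 18.8 and 17.2 CPM in FF_EtOH A and B, a ratio of 526 (179 to 2555). Both were again near the WT level in FF_EtOH C, at 0 CPM and 0.0760 CPM. Rangrf overlaps Slc25a35 on the other strand, Pea15a overlaps Dcaf8, Dnah8 overlaps Glo1 and Zfp783 overlaps Zfp956, and reads of such pairs may have been shared. The strand setting of the counting is not known here.

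Genes of metabolism and signalling came next. Alox5, the 5-lipoxygenase that starts leukotriene synthesis, stood at 0.515, 0.0694 and 0.178 CPM in WT_EtOH A, B and C, 39.1 and 21 CPM in FF_EtOH A and B and 0.228 CPM in FF_EtOH C. Alox5 had a log2 fold change of 6.93 ± 0.51 (SE) and an edgeR adjusted p of 1.53e-04. Cyp27a1, the mitochondrial sterol 27-hydroxylase, stood at 0.0793, 0.139 and 0.178 CPM, 12 and 15.9 CPM and 0.304 CPM in the same order. Cyp27a1 had a log2 fold change of 6.63 ± 0.34 (SE) and an edgeR adjusted p of 2.54e-05. Both lipid enzymes were far above every WT library in both FF libraries, and FF_EtOH C was near WT. The protein phosphatase 1 inhibitor Ppp1r14c (22.7 and 43.6 CPM in FF_EtOH A and B, at most 0.0891 CPM in WT) was also among the 12. So were the tyrosine phosphatase Ptpn3 (13.5 and 18.4 CPM, at most 0.159 CPM) and Zfp783, annotated as a transcribed pseudogene (25.5 and 37.4 CPM, at most 0.119 CPM).

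The 12 largest falls held several regulators of transcription and growth. Prdm16 (chr4:154316125-154636873), a zinc finger histone methyltransferase of stem cells and a relative of Mecom, measured 10.7, 13.7 and 13.1 CPM in WT_EtOH A, B and C, 16.6 CPM in the third FF library (labelled FF_EtOH C), and had no read in FF_EtOH A and B. WT was at least 222-fold higher over a floor of 3 counts in the 2 FF libraries together (edgeR adjusted p = 5.45e-05). Skida1 (chr2:18040676-18049051), a gene of the SKI/DACH domain family, measured 27.5, 29.4 and 24.3 CPM in WT, 0.0813 and 0.0711 CPM in FF_EtOH A and B and 31.3 CPM in FF_EtOH C. Skida1 had a log2 fold change of -8.39 ± 0.33 (SE) and an edgeR adjusted p of 9.38e-06. Among the ethanol libraries of these lines, only FF_EtOH A and B had both genes absent or nearly so. The Het line in ethanol was also low, at a mean of 0.167 CPM of Prdm16 and 0.319 CPM of Skida1.

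Cdkn2c (chr4:109660876-109667189), the CDK4 and CDK6 inhibitor p18, measured 32.7, 29.9 and 29.5 CPM in WT, 1.71 and 1.99 CPM in FF_EtOH A and B and 27.8 CPM in FF_EtOH C. Cdkn2c had a log2 fold change of -4.05 ± 0.21 (SE) and an edgeR adjusted p of 2.54e-05. Bcl11a (chr11:24078056-24174123), a zinc finger repressor of fetal globin and a lymphoid regulator, measured 14.4, 15.1 and 7.84 CPM, 1.59 and 0.391 CPM and 9.96 CPM in the same order. Bcl11a had a log2 fold change of -3.67 ± 0.54 (SE) and an edgeR adjusted p of 0.00672. In both genes WT and FF_EtOH C were high and FF_EtOH A and B low, with no overlap. Chil3 (Ym1, chr3:106147554-106167564), a chitinase-like secretory protein of neutrophil precursors and alternatively activated macrophages, was the most abundant of the 12, at 189, 176 and 179 CPM in WT, 33.3 and 13.9 CPM in FF_EtOH A and B and 220.2 CPM in FF_EtOH C. Chil3 had a log2 fold change of -2.95 ± 0.34 (SE) and an edgeR adjusted p of 0.00184. The others ranged from log2 fold changes of -2.26 to -5.12: the G protein-coupled receptor kinase Adrbk2, the chloride channel Cftr, the nucleoside transporter Slc28a2, Mansc1, the engulfment receptor Megf10, Tlcd2 and the protocadherin Pcdhgb2. Cftr lost its call without FF_EtOH A (edgeR adjusted p = 0.0700) and without FF_EtOH B (0.0636). The other genes named so far from the 12 rises and 12 falls kept theirs with any single library left out. Pcdhgb2 overlaps 21 other genes of the gamma cluster in the table, so its reads cannot be assigned with certainty, and Tlcd2 overlaps Mir22hg.

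**Figure D2:**
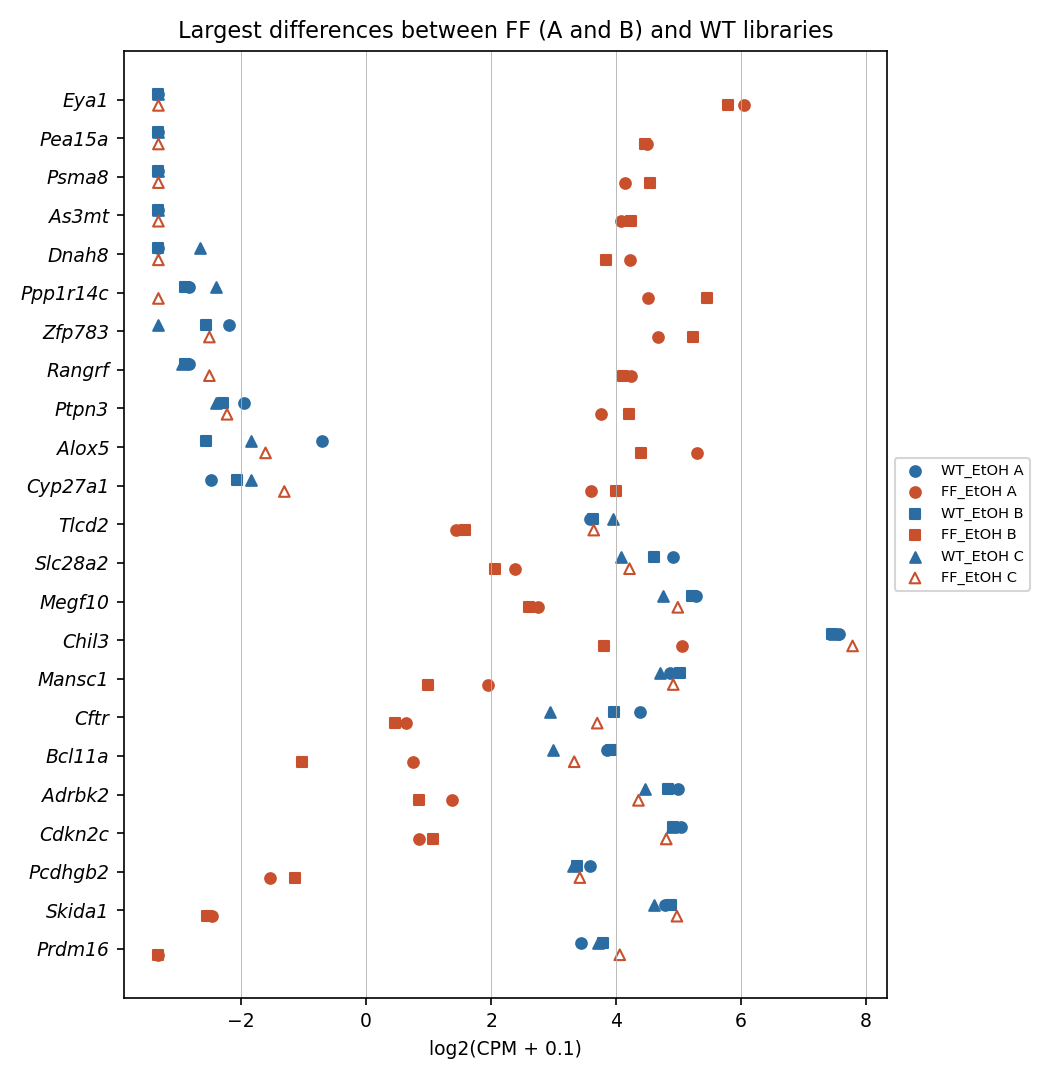
log2(CPM + 0.1) of genes with the largest rise (upper 11) and the largest fall (lower 12) in FF_EtOH A and B, in each of the 6 ethanol libraries; blue is WT_EtOH, red FF_EtOH, circles A, squares B, triangles C, and the open triangle is FF_EtOH C, which was left out when the genes were chosen. At each gene shown FF_EtOH A and B lie apart from the 3 WT_EtOH libraries, and the open triangle lies nearer to WT; Eya1 has 0 reads in the 4 libraries at the left.

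The remaining genes are described by lists of known function, by the number of tested members called in the fit without FF_EtOH C and the median log2 fold change, to be read beside the 2.92% called higher and 1.75% called lower and the median of -0.04 over all genes; no list was tested as a whole. In bulk RNA, fewer cells of a type and less RNA per cell cannot be told apart. Of 31 tested genes of the Hox cluster and the MLL-AF9 self-renewal program, 1 was higher (Eya1) and 2 lower (Prdm16 and Skida1), with a list median of 0.08, and 4 were called with the letters as a block. Hoxa9 and Meis1 were not among those called. Of 17 stem and progenitor genes, 3 were lower and none higher, and 6 were called with the block. The list median was 0.09, with 10 members above 0 and 7 below, so the list as a whole was not lower. Cd34, the sialomucin of early progenitors, fell from 3.17, 1.84 and 0.801 CPM in WT_EtOH A, B and C to 0.0813 and 0 CPM in FF_EtOH A and B (edgeR adjusted p = 0.0174), and Erg, an ETS factor of stem cells, from 9.59, 9.20 and 5.37 CPM to 1.42 and 0.676 CPM (adjusted p = 0.00518). Prom1, the surface protein CD133, went from 94.8, 85.3 and 58.7 CPM to 41.5 and 42.1 CPM (adjusted p = 0.0413). WT_EtOH C was the lowest of the WT libraries at all 3 genes. These calls rested on single libraries: Cd34 was lost without FF_EtOH A (edgeR adjusted p = 0.0999) or FF_EtOH B (0.118), Erg without FF_EtOH B (0.0527), and Prom1 without any 1 of WT_EtOH A, WT_EtOH B, FF_EtOH A and FF_EtOH B (0.0581 to 0.252).

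Most called members of the late granule and neutrophil list were lower in FF. Of 22 tested late granule and neutrophil genes, 5 were lower (Anxa1, Chil3, Mmp9, Stfa1 and Stfa3) and 1 higher (Padi4), with a median of -0.46, and 11 were called with the block. Stfa1, a stefin that inhibits cysteine proteases, measured 253, 183 and 202 CPM in WT_EtOH A, B and C, 54 and 53.3 CPM in FF_EtOH A and B and 319.7 CPM in FF_EtOH C. Stfa1 had a log2 fold change of -1.99 ± 0.18 (SE) and an edgeR adjusted p of 4.69e-04. Both FF libraries were below every WT library and FF_EtOH C was above them all. Stfa genes are close copies of each other, so reads may be split among them, and Stfa3 lost its call without FF_EtOH B (edgeR adjusted p = 0.0504). Padi4, the enzyme that citrullinates histones in neutrophil extracellular traps, stood at 36, 39.5 and 45.8 CPM, 105 and 83.5 CPM and 61.5 CPM in the same order. Padi4 had a log2 fold change of 1.22 ± 0.16 (SE) and an edgeR adjusted p of 0.00404. Of 15 tested members of the azurophil granule list, 1 was called, Igfbp4, and its call is not read as a result about granules. Igfbp4 was higher, at 331, 338 and 338 CPM in WT and 606 and 467 CPM in FF_EtOH A and B (edgeR adjusted p = 0.0363). The Igfbp4 call was lost without any 1 of WT_EtOH A, B, C and FF_EtOH A (0.075 to 0.184). With the block, and likewise with limma voom, 2 members of the azurophil list were called. Mpo, the myeloperoxidase of azurophil granules, measured 3781, 3801 and 2451 CPM in WT and 1589 and 601 CPM in FF_EtOH A and B, and was not among the genes called.

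Monocyte and macrophage genes split both ways: of 33 tested, 3 were higher (F13a1, Gpnmb and Spp1) and 6 lower (Clec4a2, Emr1, Fcgr1 and the 3 neighbouring genes Ms4a6b, Ms4a6c and Ms4a6d), with a median of -0.16, and 12 were called with the block. Gpnmb, a transmembrane glycoprotein of lipid-laden and lysosome-rich macrophages, measured 1.62, 1.53 and 4.19 CPM in WT_EtOH A, B and C, 50.4 and 59.7 CPM in FF_EtOH A and B and 1.29 CPM in FF_EtOH C. Gpnmb had a log2 fold change of 4.47 ± 0.39 (SE) and an edgeR adjusted p of 4.23e-04. F13a1, the coagulation factor XIII subunit made by monocytes, stood at 67.1, 76.5 and 60.3 CPM, 227 and 282 CPM and 74.8 CPM. F13a1 had a log2 fold change of 1.90 ± 0.16 (SE) and an edgeR adjusted p of 3.45e-04. Among the ethanol libraries of these lines, both genes were high only in FF_EtOH A and B. In the other direction, Clec4a2, an inhibitory C-type lectin, fell from 54, 46.2 and 43.4 CPM to 16.1 and 11.9 CPM. Clec4a2 had a log2 fold change of -1.78 ± 0.20 (SE) and an edgeR adjusted p of 0.00150. Fcgr1, the high-affinity IgG receptor, fell from 13.9, 13.1 and 12.5 CPM to 4.64 and 3.98 CPM. Fcgr1 had a log2 fold change of -1.61 ± 0.20 (SE) and an edgeR adjusted p of 0.00312. These 4 calls held with any single library left out. Of 27 myeloid transcription factors 2 were lower, Irf5 (edgeR adjusted p = 0.0292) and Klf4 (0.0313), and none higher. With the block 6 were called, and none without WT_EtOH C, where Irf5 had an adjusted p of 0.0576 and Klf4 of 0.0510. Both were also lost without FF_EtOH A or FF_EtOH B (0.0727 to 0.207), and Klf4 without WT_EtOH B (0.134). Of 26 cytokine receptor genes, Flt1 and Csf1r were lower and Tgfbr2 higher (5 with the block). Csf1r, the macrophage colony-stimulating factor receptor, measured 26.7, 28.2 and 34.4 CPM in WT, 15.7 and 16 CPM in FF_EtOH A and B and 22 CPM in FF_EtOH C (edgeR adjusted p = 0.0227), and lost its call without WT_EtOH B (0.0512), FF_EtOH A (0.152) or FF_EtOH B (0.0996). Flt1 lost its call without FF_EtOH B (0.0913), and Tgfbr2 without any 1 of WT_EtOH A, WT_EtOH B, FF_EtOH A and FF_EtOH B (0.0941 to 0.157).

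A few chemokine and cytokine genes were higher in FF. Of 33 tested NF-kB, chemokine and cytokine genes, 4 were higher (Ccl3, Ccl4, Ccl9 and Csf1) and none lower, with a median of 0.05, and 5 were called with the block. Ccl3, which draws monocytes to sites of inflammation, measured 48.5, 34.8 and 32.1 CPM in WT_EtOH A, B and C, 322 and 142 CPM in FF_EtOH A and B and 13.6 CPM in FF_EtOH C. Ccl3 had a log2 fold change of 2.59 ± 0.32 (SE) and an edgeR adjusted p of 0.00282. Ccl9, a CCR1 ligand of myeloid cells, stood at 85.7, 87.3 and 70.1 CPM, 224 and 307 CPM and 71.5 CPM. Ccl9 had a log2 fold change of 1.71 ± 0.18 (SE) and an edgeR adjusted p of 9.68e-04. FF_EtOH C was the lowest of the 6 libraries for Ccl3 and within the WT range for Ccl9. Ccl4 lost its call without FF_EtOH A (edgeR adjusted p = 0.0579), and Csf1 without WT_EtOH B (0.0518), FF_EtOH A (0.187) or FF_EtOH B (0.111). Of 43 interferon-stimulated genes 2 were higher, Oas1g and Ifitm1, and 6 were called with the block; the median was 0.30. Oas1g, an oligoadenylate synthetase of a family of close copies, measured 0.793, 0.694 and 1.10 CPM in WT, 17.4 and 15.8 CPM in FF_EtOH A and B and 1.41 CPM in FF_EtOH C. Oas1g had a log2 fold change of 4.25 ± 0.26 (SE) and an edgeR adjusted p of 5.45e-05. Ifitm1 lost its call without WT_EtOH A, WT_EtOH B, FF_EtOH A or FF_EtOH B (edgeR adjusted p of 0.0668 to 0.234). Among 21 genes that sense DNA or RNA in the cytosol, Tmem173, which encodes STING, was called, at 82.8, 77.4 and 86.9 CPM in WT, 127 and 120.4 CPM in FF_EtOH A and B and 73.9 CPM in FF_EtOH C (edgeR adjusted p = 0.0382). With the block 2 members were called, and the Tmem173 call was lost without WT_EtOH A, WT_EtOH B, FF_EtOH A or FF_EtOH B (0.0865 to 0.223).

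Adhesion and surface genes differed in both directions. Of 31 tested integrins and adhesion molecules, 3 were higher, among them Itgae and Jam3, and 2 lower (Alcam and Vcam1). Vcam1, the vascular cell adhesion molecule, measured 356, 349 and 404 CPM in WT_EtOH A, B and C, 142 and 95 CPM in FF_EtOH A and B and 374 CPM in FF_EtOH C. With a log2 fold change of -1.64 ± 0.20 (SE) and an edgeR adjusted p of 0.00236, it kept its call with any single library left out. Only Vcam1 kept its call among the list's 5 without WT_EtOH C, with Itgae and Alcam at edgeR adjusted p of 0.0620 and 0.0754; both were also lost without WT_EtOH B, FF_EtOH A or FF_EtOH B (0.0643 to 0.193). Of 15 MHC class I genes, H2-Q4 was higher and H2-T10 and H2-T24 lower, in a family of close copies (4 called with the block). H2-T10 lost its call without FF_EtOH A (edgeR adjusted p = 0.0697), and without WT_EtOH C H2-Q4 stood at 0.0543 and H2-T24 at 0.0685, and both were also lost without WT_EtOH B, FF_EtOH A or FF_EtOH B (0.0744 to 0.152), H2-Q4 also without WT_EtOH A (0.0676).

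Markers of other cell types differed in a few genes. Of 7 tested stromal and endothelial genes, 3 were higher (Pdgfrb, Pecam1 and Thy1), and 5 were called with the block. Pecam1, the adhesion molecule CD31 that leukocytes share with endothelium, measured 65.7, 67 and 64.3 CPM in WT_EtOH A, B and C, 219 and 213 CPM in FF_EtOH A and B and 67 CPM in FF_EtOH C. Pecam1 had a log2 fold change of 1.72 ± 0.12 (SE) and an edgeR adjusted p of 1.32e-04. Thy1, the surface glycoprotein CD90, stood at 4.91, 4.48 and 4.57 CPM, 22.5 and 15.4 CPM and 4.86 CPM. Thy1 had a log2 fold change of 2.03 ± 0.22 (SE) and an edgeR adjusted p of 0.00131. Both stayed far from silent in WT. The 20 stromal and endothelial genes summed to 794 to 1021 CPM in the WT_EtOH libraries and 891 to 937 CPM in FF_EtOH A and B. Of these, 6, namely Col3a1, Col6a1, Dcn, Emcn, Lum and Pdgfra, had 0 counts in all 6 libraries, and Col1a1 reached at most 1.71 CPM. Of 7 tested B lymphoid genes Cd79b, the B cell receptor's Ig-beta chain, was lower, at 8.52, 6.73 and 8.31 CPM in WT and 0.651 and 0.284 CPM in FF_EtOH A and B, with a log2 fold change of -4.08 ± 0.37 (SE) and an edgeR adjusted p of 5.15e-04. The 19 genes of the list summed to 12.1 to 14.3 CPM in the WT_EtOH libraries and 6.34 to 6.79 CPM in FF_EtOH A and B. Cd79b made up most of the sum in each WT_EtOH library, so the sums largely repeat its fall. Ms4a1, Ebf1 and Rag1 had 0 counts. Of 7 tested T and NK lymphoid genes Thy1 and Bcl11b were higher. The list's 26 genes, Thy1 among them, summed to 25 to 27.3 CPM in the WT_EtOH libraries and 36.2 to 48.9 CPM in FF_EtOH A and B. Cd3e, Cd3g and Ncr1 had 0 counts. H2-Ab1, an MHC class II chain and the 1 called of 11 tested dendritic cell and class II genes (3 with the block), measured 0, 0.0347 and 0 CPM in WT and 1.75 and 2.06 CPM in FF_EtOH A and B (edgeR adjusted p = 7.51e-04). The 21 genes of that list summed to 135 to 157 CPM in the WT_EtOH libraries and 126 to 132 CPM in FF_EtOH A and B, with Cd209a and Siglech at 0. Alox5 was the 1 called of 8 mast cell and basophil genes (3 with the block), whose 21 members summed to 350.3 to 350.5 CPM in the WT_EtOH libraries and 346 to 488 CPM in FF_EtOH A and B, and Gp1bb, lower, the 1 called of 11 megakaryocyte genes, whose 19 members summed to 378 to 492 CPM in the WT_EtOH libraries and 465 to 501 CPM in FF_EtOH A and B. The part of any such cells in the line difference was not tested.

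The lists of p53 targets, G2/M and mitosis, DNA replication and RNA helicases gave no calls by edgeR. Cell cycle genes outside these lists were called, such as Cdkn2c above. None of 33 tested p53 target genes, 37 G2/M and mitosis genes, 47 DNA replication genes or 46 DEAD-box and DEAH-box helicases was called by edgeR. At an unadjusted p under 0.05 edgeR gave 3, 3, 2 and 1 of them. DESeq2 called 1 G2/M gene and none of the other lists, limma voom none of the 4, and the block added 1 G2/M gene. Their median log2 fold changes were -0.14, -0.04, -0.04 and -0.03. The 4 tested erythroid and 2 tested eosinophil genes had no call either (edgeR, DESeq2 and limma voom alike), with 0 and 1 at an unadjusted p under 0.05.

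Several metabolic lists held 1 call each. Cth, the cystathionine gamma-lyase that makes cysteine, was the 1 lower gene of 39 in the ATF4 and amino acid list (2 called with the block), at 46, 47.6 and 34.2 CPM in WT_EtOH A, B and C, 10.3 and 10.1 CPM in FF_EtOH A and B and 56.5 CPM in FF_EtOH C. Cth had a log2 fold change of -2.06 ± 0.20 (SE) and an edgeR adjusted p of 7.51e-04. FF_EtOH A and B were low and FF_EtOH C was above every WT library. Slc16a3, the lactate exporter MCT4, was the 1 higher gene of 23 in the glycolysis list (3 with the block, 2 with limma voom), at 163, 158 and 249 CPM, 338 and 391 CPM and 309 CPM (edgeR adjusted p = 0.0398). Slc16a3 lost its call without WT_EtOH B, FF_EtOH A or FF_EtOH B (0.0744 to 0.157). The 24 glycolysis genes summed to 12769 to 15556 CPM in the WT_EtOH libraries and 14555 to 19179 CPM in FF_EtOH A and B, and 18 of the 23 tested were above 0 on the log2 scale. Gstt2, a glutathione transferase, was the 1 called of 42 heme, iron and glutathione genes (3 with the block), and its call was lost without WT_EtOH B, FF_EtOH A or FF_EtOH B (edgeR adjusted p of 0.061 to 0.11). Of 14 snoRNA host transcripts Snhg11 was higher, lost without WT_EtOH C (edgeR adjusted p = 0.0738) or FF_EtOH B (0.116).

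Imprinted genes are read from 1 parental copy and kept so by DNA methylation. Of 30 tested, 3 neighbours on chromosome 6 were higher (Sgce, Peg10 and Ppp1r9a) and Cdkn1c was lower, and 5 were called with the block. Ppp1r9a, neurabin, measured 0.0396, 0 and 0 CPM in WT_EtOH A, B and C, 2.72 and 4.44 CPM in FF_EtOH A and B and 0.0380 CPM in FF_EtOH C (edgeR adjusted p = 3.82e-04). Peg10, a paternally expressed gene derived from a retrotransposon, stood at 0.872, 0.590 and 0.327 CPM, 3.82 and 2.20 CPM and 0.494 CPM. Peg10 had a log2 fold change of 2.35 ± 0.44 (SE) and an edgeR adjusted p of 0.0190. Among the ethanol libraries of these lines, both were high only in FF_EtOH A and B. Peg10 lost its call without WT_EtOH C (edgeR adjusted p = 0.0575) or FF_EtOH A (0.187), and Cdkn1c, an inhibitor of cyclin-dependent kinases, without WT_EtOH C (0.102), FF_EtOH A (0.296) or FF_EtOH B (0.132).

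**Figure D3:**
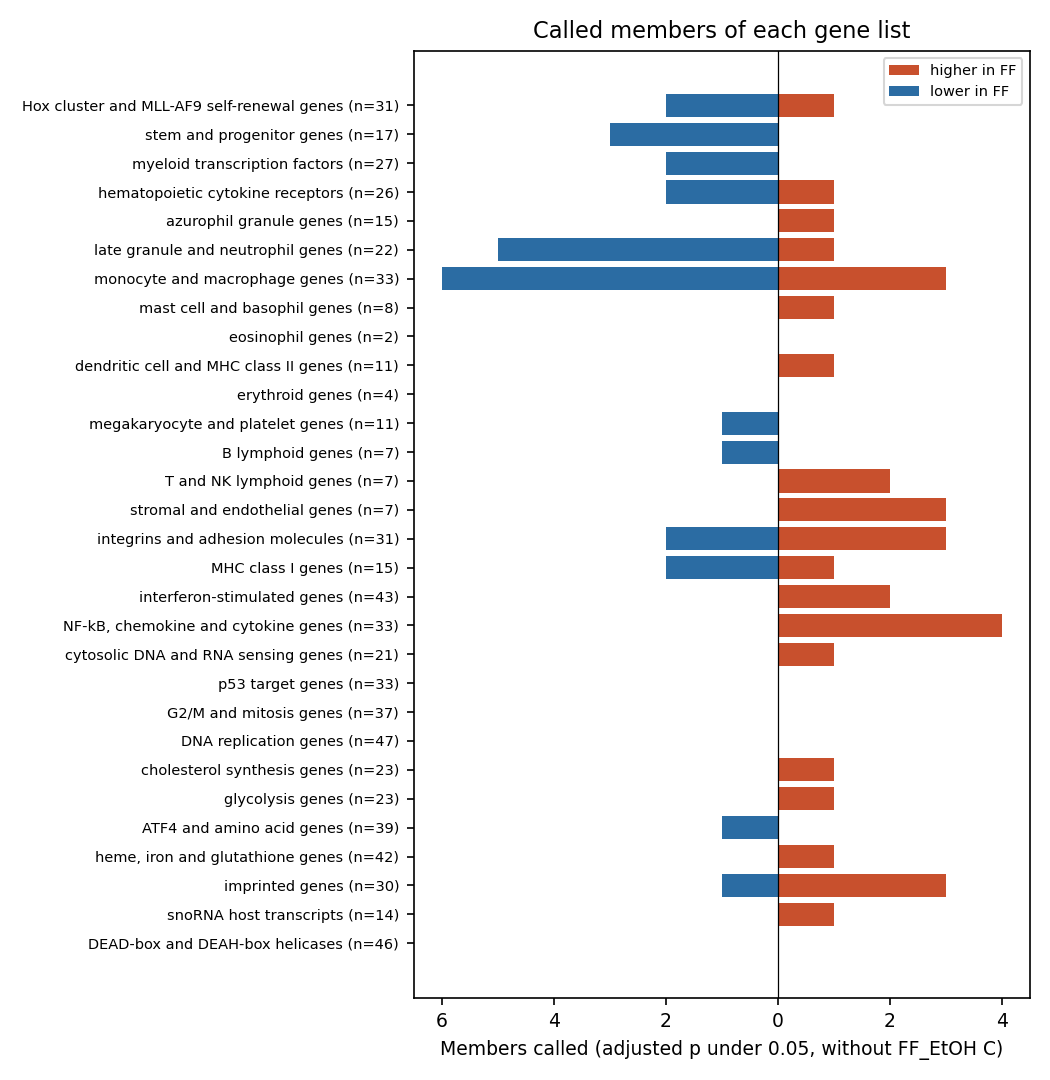
Number of members of each of the 30 gene lists called higher (red, to the right) or lower (blue, to the left) in FF_EtOH A and B than in WT_EtOH A to C, at an edgeR adjusted p under 0.05; n is the number of autosomal members tested. The monocyte and macrophage list holds the most calls, 3 higher and 6 lower of 33, and the p53, G2/M, DNA replication and helicase lists hold none.

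The 4OHT libraries allowed the same genes to be measured in cells of both lines that the ethanol comparison did not use. They are not a repeat of it, since FF_4OHT cells have lost Ddx41: it averaged 16.2 ± 1.54 CPM (SD, n = 3) in FF_4OHT against 82.1 ± 9.66 CPM (SD, n = 2) in WT_4OHT A and B, a log2 fold change of -2.35 ± 0.12 (SE). Without WT_4OHT C, 35.4% of 11839 autosomal genes were called. Of the genes called higher in ethanol, 282 of 336 tested were called higher again (83.9%), beside 16.3% of all genes. Of those called lower, 161 of 203 were lower again (79.3%), beside 19.1%. The median log2 fold changes were 1.76 in ethanol and 1.52 after 4OHT for the higher genes, and -1.61 and -1.38 for the lower genes. 3 genes were called in opposite directions: Scd1, a fatty acid desaturase, and Scly, a selenocysteine lyase, which were higher in ethanol, and Csf1r, which was lower in ethanol (-0.91) and higher after 4OHT (0.43). These counts rest on leaving out WT_4OHT C: with it included, 26 of 334 higher genes (beside 7.60% of all genes) and 40 of 182 lower genes (beside 13.2% of all genes) were called the same way.

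Several genes with a wide gap in ethanol, picked here from those named above, also differed after 4OHT. Eya1 averaged 75 ± 5.98 CPM (SD, n = 3) in FF_4OHT and had 0 counts in WT_4OHT A and B. Prdm16 had 0 counts in the 3 FF_4OHT libraries and averaged 11.1 ± 1.53 CPM (SD, n = 2) in WT_4OHT A and B. Each was present in 1 line and had no read in the other. Gpnmb averaged 283 ± 109 CPM (SD, n = 3) in FF_4OHT against 3.89 ± 1.08 CPM (SD, n = 2) in WT_4OHT A and B. Vcam1 averaged 140.2 ± 5.76 CPM (SD, n = 3) in FF_4OHT against 367 ± 4.81 CPM (SD, n = 2) in WT_4OHT A and B. In each of these genes the line difference had the direction seen in ethanol. Stfa1, Clec4a2 and Klf4 did not pass the test after 4OHT, at log2 fold changes of -0.67, -0.38 and -0.08 (edgeR adjusted p = 0.331, 0.0556 and 0.745). Whether the line difference itself changed with 4OHT was not tested. In ethanol, the Het line averaged 91.6 ± 8.80 CPM of Eya1, 0.167 ± 0.0390 CPM of Prdm16 and 18.7 ± 6.02 CPM of Cdkn2c (SD, n = 3 each).

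**Figure D4:**
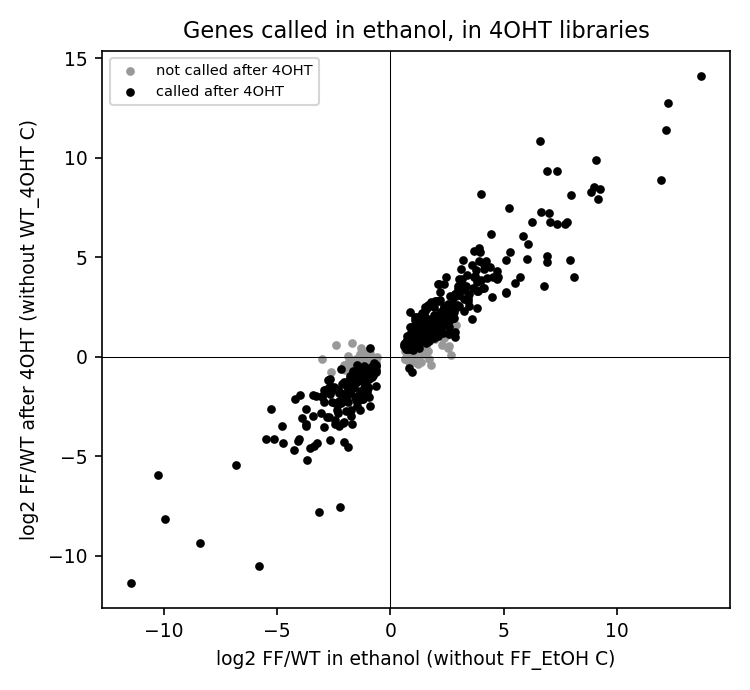
log2 fold change of FF over WT in the ethanol libraries (x axis, without FF_EtOH C) and in the 4OHT libraries (y axis, without WT_4OHT C) for the 539 genes called in ethanol and tested in both; black points passed the test after 4OHT and grey points did not. Most points lie in the upper right and lower left, with medians of 1.76 and 1.52 for genes higher in ethanol and -1.61 and -1.38 for lower ones.

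At 18 of the 547 genes, FF_EtOH C lay nearer to FF_EtOH A and B than to WT: 13 higher and 5 lower, all without overlap over the 6 libraries, as were 1027 of the 11417 genes tested with all 6. They were singled out after their values were seen and are given as a description. Egln3 and Padi4 have been described. Slc16a3 belongs to them, and so do the desaturase gene Scd1 (41.7, 53.2 and 37.2 CPM in WT_EtOH A, B and C, 71 and 102 CPM in FF_EtOH A and B, 65.3 CPM in FF_EtOH C) and Deptor, an inhibitor of mTOR (27.4, 30.9 and 25.3 CPM, 41.9 and 71.2 CPM and 39.2 CPM). In these genes FF_EtOH C lay above every WT library and near the lower FF value. Klf4, a zinc finger factor of monocyte differentiation, was lower in all 3 FF libraries, at 7.33, 8.54 and 7.12 CPM in WT and 3.05 and 3.95 CPM and 3.76 CPM in FF. The other lower genes were Abi3, Apba1, Ms4a6c and Olfm1. The other higher genes were Bspry, Chrm4, Hpse2, Irs1, Klk1b11, Rnf152, Sat2 and Zfp612, all of them under 10 CPM in each of these 6 libraries. In the Het line Irs1, Klk1b11 and Rnf152 passed 10 CPM in at least 1 ethanol library.

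**Figure D5:**
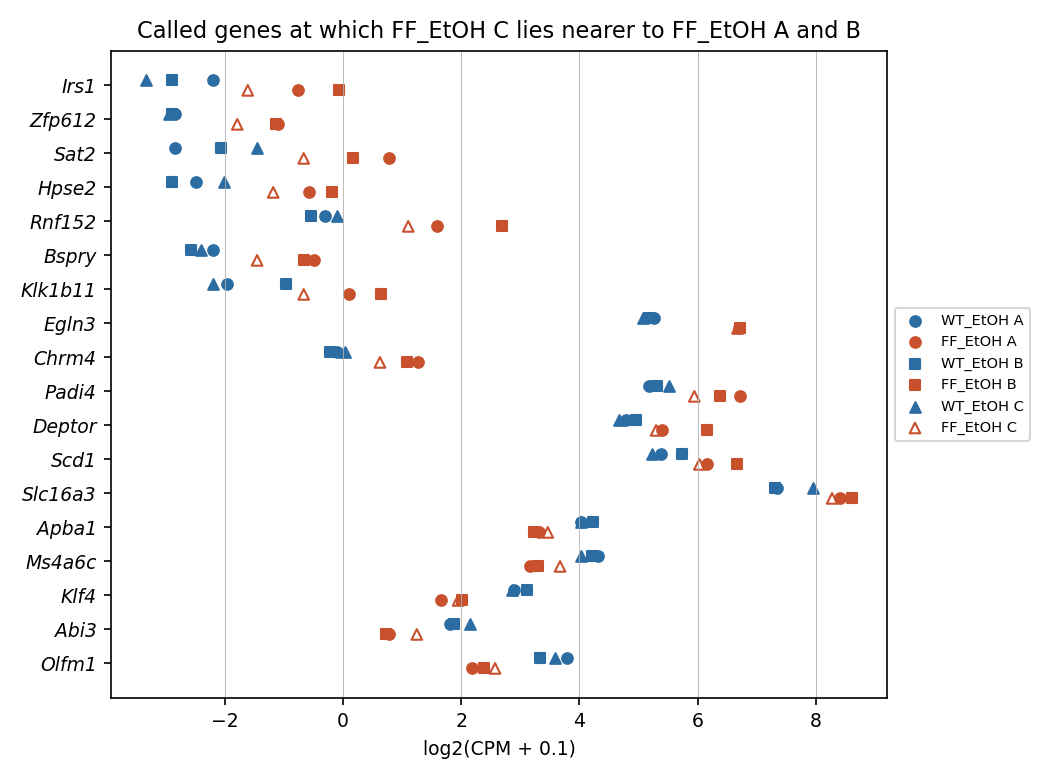
log2(CPM + 0.1) of the 18 called genes at which FF_EtOH C (open triangles) lies nearer to FF_EtOH A and B (red circles and squares) than to the WT_EtOH libraries (blue). The groups do not overlap at any of the 18; at Egln3 the 3 FF libraries stand at 102 to 105 CPM and WT at 33.6 to 38.4 CPM.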

How the data were processed

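The authors deposited raw read counts per gene symbol for 18 RNA-seq libraries in 1 table. The submitters' processing notes name mm10 as the build, HISAT2 2.0.5 and featureCounts 1.5.2 (Subread), and also CASAVA 1.4 and FastQC 0.11.7. The annotation, the strand setting and the handling of reads with several matches were not given in the sources used here. From the deposited counts, CPM were computed on library sizes with TMM factors over all 18 libraries (edgeR 4.0.16, R 4.3.3). Totals ran from 24730213 to 49277884.

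Each comparison was fitted on its own libraries with edgeR's quasi-likelihood F test (robust), because the library WT_4OHT C, which lies with the FF line, would put the line difference into the shared spread. Genes passed filterByExpr with a minimum count of 10, p-values were adjusted by Benjamini-Hochberg over all genes tested, and the threshold was 0.05. Genes were placed by symbol on GENCODE M21 (GRCm38, the assembly of mm10; 22708 matched to 1 gene), then RefSeq GRCm38.p6 (1176); 42 had several matches and 136 none. Genes on X and Y and those without a place entered the fit but are not described; 20, 1 and 2 of them were called without FF_EtOH C.

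The comparison, the members and the gene lists were chosen with earlier results of these data known. Named genes are Ddx41, the 12 largest rises and 12 largest falls without FF_EtOH C among called genes whose higher group averaged 10 CPM or more and whose libraries did not overlap, the 6 largest each way with all 6 libraries, and up to 4 called genes per list that averaged 1 CPM or more in one group; uncharacterised models were passed over, and a few genes that the rule names are not reported here. The 30 lists, promoter windows, other normalizations, filters, DESeq2 1.42.0 and limma 3.58.1 are as described with their results. Intervals and floors cover counting error only.

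Letters were checked for pairing: over the 6 libraries the deviations of same-lettered FF and WT libraries from their group means correlated at 0.145 (A), 0.208 (B) and 0.113 (C), and at 0.225 between A and B without both C libraries. By the criterion of a correlation over 0.1 in every pair the letters pair the libraries. Nothing in the labels says what a letter shares, so values with the letters as a block stand beside the results they change. Without FF_EtOH C, such a block leaves WT_EtOH C no part in the line difference.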

Additional observations from a re-analysis of the deposited data

How the results depend on the processing

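With all 6 libraries the 1 called gene became 0 with the replicate block (the letters as a block), 39 with DESeq2, 0 with all groups in the fit, 46 with all groups but WT_4OHT C, and 0 to 547 with 1 library left out, where 547 is the count without FF_EtOH C. Without FF_EtOH C the 547 called genes became 981 with the replicate block, 320 with a minimum of 5 CPM in 2 libraries, 227 at an adjusted p of 0.01, 1 with all groups in the fit, 1 with FF_EtOH C included, and 206 to 527 with a further library left out, the lowest without FF_EtOH A. DESeq2 gave 744, no count filter 668 and all groups but WT_4OHT C 597. In the 4OHT libraries 4195 called genes became 2433 with WT_4OHT C included and 2306 to 4164 with a library left out, the lowest without WT_4OHT B. Of the 68 named genes, Ddx41 alone reversed, to -0.035 without FF_EtOH A, in a range of -0.035 to 0.41 with 1 library left out. The replicate block changed no other call among the named genes than that of Egln3 with all 6 libraries. The cause of these changes was not tested. With 2 FF libraries, genes under about 10 reads were not tested, and differences in them were not detectable at this depth.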

Other observations

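Other called genes, chosen for mention after their values were seen, add to the picture of the line difference. Il2ra, the alpha chain of the interleukin-2 receptor, measured 0.357, 0.416 and 0.327 CPM in WT_EtOH A, B and C, 4.23 and 5.80 CPM in FF_EtOH A and B and 0.152 CPM in the library labelled FF_EtOH C. Ghr, the growth hormone receptor, stood at 0.951, 1.08 and 1.28 CPM, 7.40 and 12.3 CPM and 2.43 CPM in the same order. Dnmt3a, a de novo DNA methyltransferase that is often mutated in human myeloid leukaemia, stood at 14.3, 12.1 and 12.8 CPM, 29.8 and 26.7 CPM and 11.4 CPM, a log2 fold change of 1.11 ± 0.17 (SE) (edgeR adjusted p = 0.00717). Zeb1, a zinc finger repressor, was lower in FF_EtOH A and B, at 2.42, 2.50 and 2.11 CPM, 0.935 and 0.960 CPM and 2.01 CPM.

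Called genes also stood side by side. Among tested genes in genome order, 39 runs of 2 or more neighbours were called in the same direction, 85 genes in all, with at most 3 genes in a run; no chance level was computed for this count. Beside the imprinted run on chromosome 6, they include the inflammasome sensors Nlrp1a and Nlrp1b (29.6 and 25.4 CPM and 4.43 and 5.65 CPM in FF_EtOH A and B against 9.95, 11 and 11.6 CPM and 0.753, 0.972 and 0.505 CPM in WT), the arginine deiminases Padi4 and Padi2, the chemokines Ccl3 and Ccl4, and Ptpn3 with Palm2 and Akap2, all higher in FF. Runs that were lower include Cdkn2c with Faf1 and Dmrta2, Stfa3 with Cd86 and Slc15a2, and Skida1 with A930004D18Rik and Gm17762. Some runs are copies or overlapping genes that can share reads. In the gamma protocadherin cluster Pcdhga10, Pcdhgb7 and Pcdhgc3 were higher while Pcdhgb2 was lower. Chromosome 12 had 20 genes called higher and 1 lower of 415 tested, and the share called ranged from 2.90% on chromosome 8 to 7.69% on chromosome 18, beside 4.67% over all autosomes.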
